A study of Mus musculus with 16 samples.

Results

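The 39 genes described here encode the proteins that copy and repair DNA: the origin licensing factors, the replicative helicase, the DNA polymerases, the sliding clamp and its loader, the enzymes that supply deoxynucleotides, and 5 genes of repair and chromatin copying. They were taken by symbol from an expression table of whole mouse lung, with the probe of highest mean level where a gene had several, and 39 of 39 were measured among 20863 genes. Of these, 33 had 1 probe and 6 had several. Their mean levels over the 16 arrays ran from 5.32 to 12.75 on the log2 scale, and 4 of them (Orc1, Cdc45, Brca1 and Fancd2) lay below 6.15, the median of all spots.

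The study asked what silencing of miR-199a-5p, a microRNA, did to bleomycin-induced lung fibrosis. Lungs came from C57BL/6 mice of 9 to 12 weeks. All 4 groups received an oligonucleotide of locked nucleic acid (LNA) in the trachea at 5 mg/kg: either LNA-control or LNA-miR-199a-5p, called the inhibitor below. It was given 4 and 2 days before, and 4 days after, an intratracheal dose of bleomycin at 1 unit/kg or of PBS. The groups were PBS with LNA-control (3 arrays), PBS with the inhibitor (3 arrays), bleomycin with LNA-control (5 arrays) and bleomycin with the inhibitor (5 arrays). The labels number the replicates and do not say whether each was a separate animal, so p-values measure the spread between these arrays, which may in part be technical. The tissue was whole lung with no sorting, and in such bulk samples fewer cells of a type and less RNA per cell cannot be told apart. Neither sex nor the time of sampling is given in the sources used here.

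A cell copies its genome in S phase. In G1, the origin recognition complex (Orc1, Orc6), Cdc6 and Cdt1 load the ring of Mcm2 to Mcm7 on DNA, and Mcm10, Cdc45 and the GINS complex (Gins1, Gins2) then turn that ring into a moving helicase. Polymerase alpha with primase starts each strand, polymerases epsilon and delta extend it, and Pcna, loaded by replication factor C, holds them on the template. Most of these genes are transcribed at the G1/S boundary by the E2F factors, so in an adult lung, where few cells divide, their transcripts mark cells that cycle. Bleomycin cuts DNA strands and injures the lung, after which epithelium, fibroblasts and macrophages can divide.

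The sequence below is that of mouse miR-199a-5p, the target of the inhibitor, with its seed (bases 2 to 8) in capitals. It is shown because the inhibitor is defined by it. RefSeq (GRCm38.p6) places it in Mir199a-2 at chr1:162217844-162217866, plus strand, and in Mir199a-1 at chr9:21496537-21496559, minus strand.
miR-199a-5p: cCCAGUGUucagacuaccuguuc

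Some promoters of the gene set hold letters that the choice of members did not use. RefSeq windows from 250 bases before to 50 after the start of transcription (GRCm38.p6) were found for 33 of the 39 genes. They were searched on both strands for the E2F-type letters TTTCCCGC, TTTCGCGC, TTTGCCGC and TTTGGCGC. Of these 33 genes, 14 held a match (42.4%), beside 2.60% of 27025 genes with windows of the same length. By window, this was 14 of 39 (35.9%) against 2.26% of 32851. The letters CCAAT, which are common in promoters of dividing cells, were in 59.0% of the members' windows and 37.4% of all windows. The letters TTTGAA, a core of late cell cycle promoters, were in 10.3% and 17.9%. For comparison, of the 11 windows of a list of mitosis genes, 9.09% held E2F-type letters, 90.9% held CCAAT and 72.7% held TTTGAA. The 3 windows shown belong to the genes with a match whose levels differed most after bleomycin with LNA-control, and the E2F-type letters are in capitals. In the Uhrf1 window (chr17:56304063-56304362, plus strand) it starts at -185, counted from the start of transcription. In the Mcm5 window (chr8:75109259-75109558, plus strand) there are 2 overlapping matches, at -153 and -149. In the Pole2 window (chr12:69228141-69228440, minus strand) it starts at 10, downstream of the start of transcription.
Uhrf1: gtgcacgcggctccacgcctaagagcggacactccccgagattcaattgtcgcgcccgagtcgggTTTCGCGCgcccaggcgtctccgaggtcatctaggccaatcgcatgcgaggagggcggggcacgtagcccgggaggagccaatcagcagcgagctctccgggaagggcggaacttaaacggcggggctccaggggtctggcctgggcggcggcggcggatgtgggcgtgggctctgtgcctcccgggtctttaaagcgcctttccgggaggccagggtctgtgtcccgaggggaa
Mcm5: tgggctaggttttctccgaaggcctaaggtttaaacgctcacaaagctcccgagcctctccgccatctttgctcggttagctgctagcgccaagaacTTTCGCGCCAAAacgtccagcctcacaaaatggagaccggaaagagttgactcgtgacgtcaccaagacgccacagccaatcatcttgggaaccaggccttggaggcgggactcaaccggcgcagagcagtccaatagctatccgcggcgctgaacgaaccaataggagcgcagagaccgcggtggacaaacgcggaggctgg
Pole2: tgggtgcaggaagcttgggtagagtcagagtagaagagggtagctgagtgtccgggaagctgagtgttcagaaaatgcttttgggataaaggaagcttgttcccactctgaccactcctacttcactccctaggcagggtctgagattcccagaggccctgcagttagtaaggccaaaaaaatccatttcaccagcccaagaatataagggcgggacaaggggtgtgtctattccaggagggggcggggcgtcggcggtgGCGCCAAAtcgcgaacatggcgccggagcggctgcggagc
The windows of Tk1 and Rrm2, whose levels moved most beside Uhrf1, held no E2F-type letters. A match is a description of the letters and not a bound site.

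Before the results, the arrays themselves need a description, since 2 of them stand apart. Within bleomycin with LNA-control, Rag1, the recombinase of developing thymocytes, was at 10.03 on replicate 1 and 10.88 on replicate 4. The other 14 arrays of the study lay between 5.43 and 6.10. On these 2 arrays 11 of 12 measured thymocyte markers lay above every array of the other 3 groups. This was 1 of 12 on replicates 2 and 5 and 0 of 12 on replicate 3. Thymocytes divide, so the counts over the 39 genes in comparisons with this group are also given without the 2 arrays. RNA integrity numbers were 7 to 10, with the 7 on replicate 5 of bleomycin with LNA-control. Sftpc, the surfactant gene of alveolar type II cells, read 18.11 to 18.32 on all 16 arrays, at or near the top of the scale.

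The mean of the 39 genes separated the arrays of bleomycin with LNA-control into high and low ones. Against the mean of PBS with LNA-control, it was higher by 0.74, 0.31, 0.13, 0.76 and 0.72 (log2) on replicates 1 to 5. The arrays of PBS with LNA-control themselves lay between -0.06 and 0.05, those of PBS with the inhibitor between 0.02 and 0.08, and those of bleomycin with the inhibitor between 0.00 and 0.26. Replicate 5 was as high as replicates 1 and 4, although its mean over the 12 thymocyte markers was -0.01, beside 1.58 and 2.24 on those 2 arrays. It exceeded both replicates 2 and 3 in 34 of 39 genes, and against replicates 1 and 4 it was above both in 7, between them in 19 and below both in 13. The mean of 11 mitosis genes followed the same order of arrays: 1.89, 1.07, 0.46, 2.05 and 1.81. The mean of 8 macrophage markers was 2.10, 1.91, 1.82, 1.97 and 2.23 on replicates 1 to 5. Replicates 2 and 3 were again the lowest, although replicate 2 (1.91) was close to replicate 4 (1.97). Squamous epithelium markers were lower on replicates 1, 4 and 5 (0.63, 0.62 and 0.65) than on replicates 2 and 3 (1.43 and 1.62). Endothelial, alveolar epithelial, heart muscle and red blood cell markers were also lower there, and mature T cell markers higher. Fibroblast, fat and B cell markers did not divide the arrays so. The part of thymus transcripts in the high arrays was not tested beyond these values and the results without replicates 1 and 4. That of the other cells was not tested. Replicate 5 also had the lowest RNA integrity number, and the part of RNA quality in its values was not tested.

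**Figure D1:**
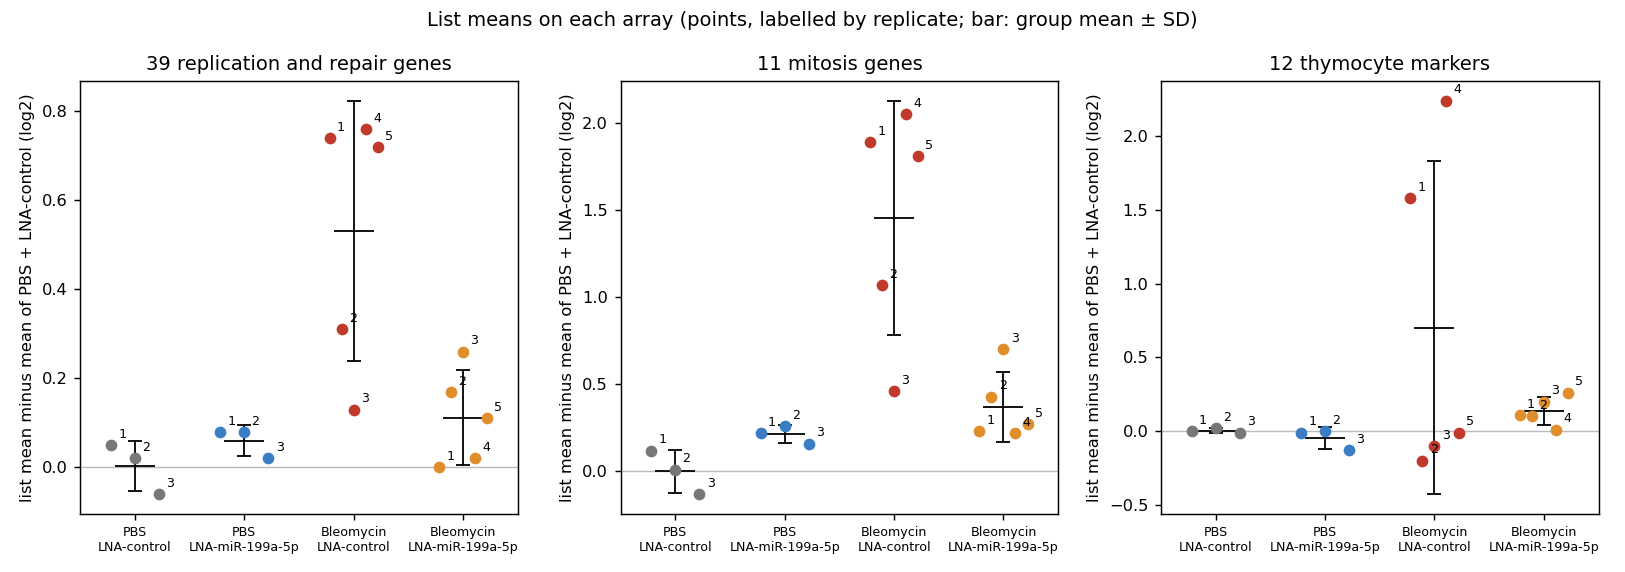
Mean over 39 replication and repair genes (left), 11 mitosis genes (middle) and 12 thymocyte markers (right) on each array, in log2 units relative to the mean of PBS with LNA-control; points are arrays labelled by replicate and bars are group mean ± SD. Replicates 1, 4 and 5 of bleomycin with LNA-control lie between 0.72 and 0.76 in the left panel, and of these replicate 5 lies at -0.01 in the right panel.

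With LNA-control, bleomycin raised genes of every role in the set, with 3 of 4 called both in nucleotide supply and in helicase activation. Tk1, Rrm2, Uhrf1, Gins2, Pole, Mcm5 and Mcm10 each rose more than 2-fold. Of the 39 genes, 20 were higher after bleomycin (51.3%) and 0 lower by limma at an adjusted p under 0.05. Over all genes 17.5% were called, 9.60% higher and 7.90% lower. The median difference was 0.45 on the log2 scale, beside 0.00 over all genes, and 39 of 39 differences were above 0, from 0.02 for Pola2 to 1.60 for Uhrf1. In 19 genes each bleomycin array exceeded each PBS array (13.9% of all genes). Without replicates 1 and 4, 11 of the 39 stayed higher (28.2%, beside 6.26% of all genes), the median was 0.31 and the groups did not overlap in 19 genes (17.6% of all genes). These 11 were Cdc6, Chaf1a, Gins1, Gins2, Mcm10, Mcm5, Pole, Rfc4, Rrm2, Tk1 and Uhrf1.

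**Figure D2:**
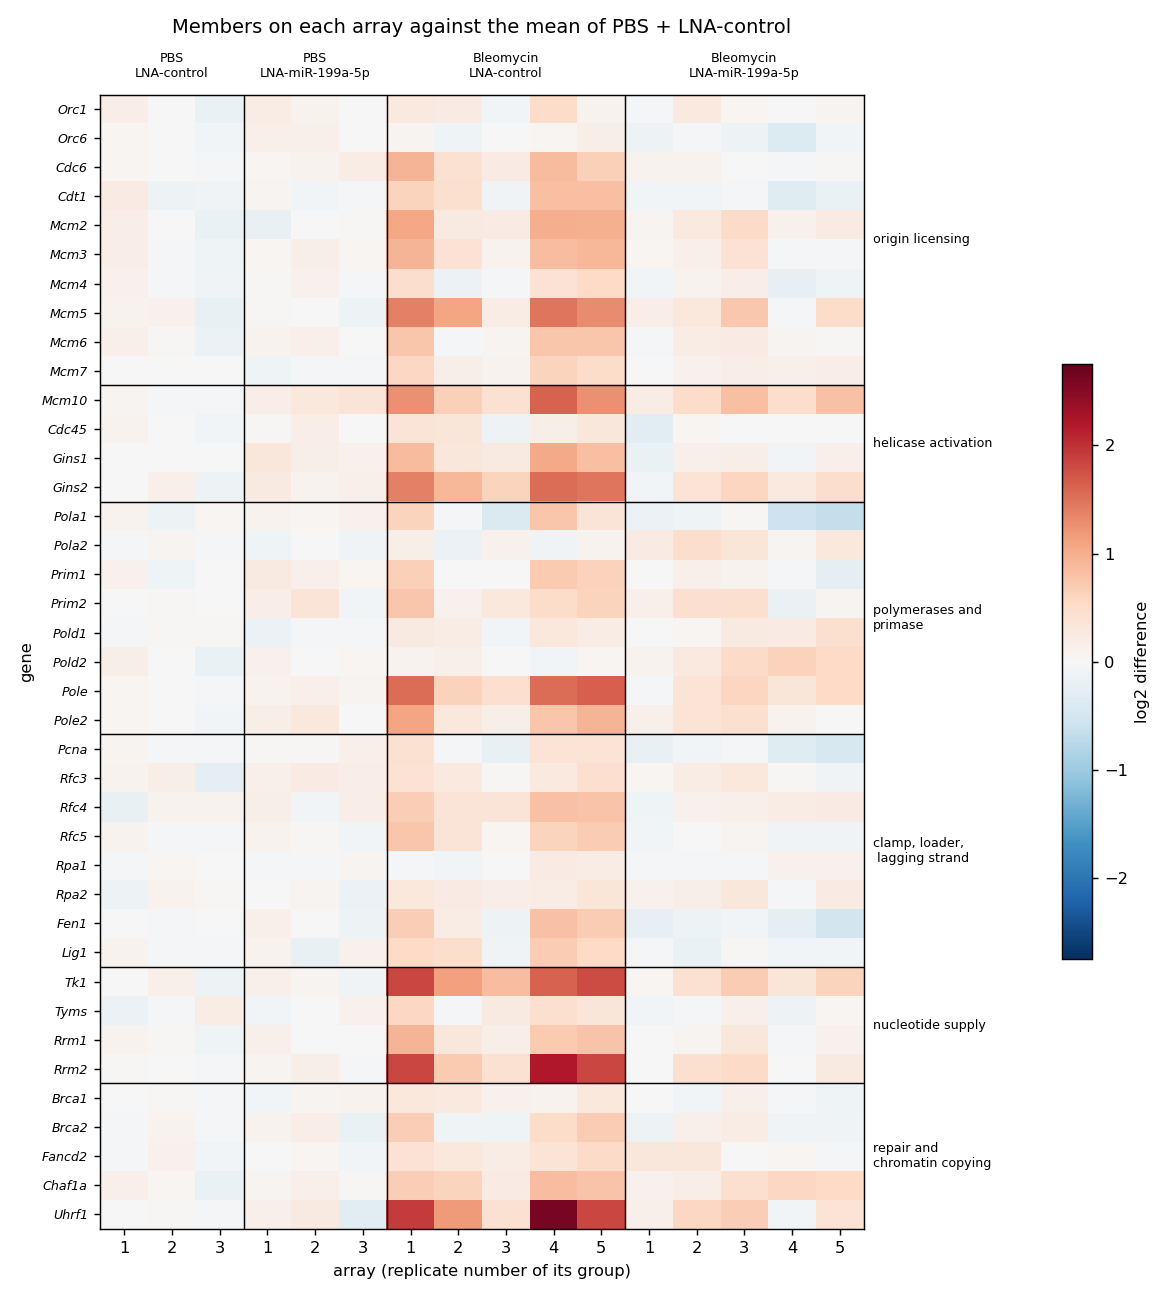
Level of each of the 39 genes on each of the 16 arrays as a log2 difference from the mean of PBS with LNA-control (colour scale from blue, lower, to red, higher), with genes grouped by role and arrays by group. The red columns are replicates 1, 4 and 5 of bleomycin with LNA-control, where the mean over the genes was 0.74, 0.76 and 0.72.

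Among the enzymes that supply deoxynucleotides 3 of 4 rose. Tk1, the thymidine kinase of the salvage pathway, read 8.85, 9.00 and 8.72 in PBS with LNA-control. After bleomycin with LNA-control it read 10.69, 9.99, 9.71, 10.47 and 10.65. All 5 bleomycin arrays were above all 3 PBS arrays. The difference was 1.45 ± 0.20 (SE), or 2.73-fold, with an adjusted p of 9.03e-05 by limma, and without replicates 1 and 4 it was 1.26 ± 0.20 (adjusted p = 0.00127). Rrm2, the S phase subunit of ribonucleotide reductase, read 9.81, 9.76 and 9.74 in PBS, and 11.61, 10.49, 10.19, 11.97 and 11.60 after bleomycin. Replicates 1, 4 and 5 were more than 1 log2 unit above replicates 2 and 3, and the groups did not overlap. Its difference was 1.40 ± 0.30, 2.64-fold (adjusted p = 0.00382), and 0.99 ± 0.26 without the 2 arrays (adjusted p = 0.0252). Rrm1, the large subunit of the same enzyme, rose by 0.58 ± 0.14 (adjusted p = 0.00932), a call that was lost without the 2 arrays (0.42 ± 0.14, adjusted p = 0.0703). Tyms, thymidylate synthase, differed by 0.31 ± 0.12 and was not called (adjusted p = 0.0883).

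Helicase activation came next, with 3 of 4 genes higher, and these 3 were also called without replicates 1 and 4. Gins2 read 6.98, 7.15 and 6.87 in PBS and 8.38, 7.92, 7.61, 8.54 and 8.48 after bleomycin. The lowest bleomycin array, replicate 3, was still above the highest PBS array. The difference was 1.19 ± 0.19, 2.28-fold (limma adjusted p = 0.000327), and 1.00 ± 0.19 without the 2 arrays. Mcm10, which helps the assembled helicase to start, read 7.16, 7.06 and 7.03 in PBS and 8.35, 7.73, 7.51, 8.70 and 8.35 after bleomycin. Again the groups did not overlap, with a difference of 1.04 ± 0.21 (adjusted p = 0.00228). Gins1 read 7.90, 7.89 and 7.88 in PBS and 8.77, 8.20, 8.14, 8.93 and 8.72 after bleomycin, and rose by 0.66 ± 0.15 (adjusted p = 0.00577). Cdc45, the third component of the active helicase, was dim (5.75 to 5.91 in PBS) and differed by 0.21 ± 0.11 (adjusted p = 0.214).

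Among the 10 licensing genes, 6 rose: Mcm5, Mcm2, Mcm3, Cdc6, Cdt1 and Mcm7. The members of the Mcm ring did not move by like amounts. Mcm5 read 8.82, 8.85 and 8.52 in PBS and 10.12, 9.81, 8.93, 10.21 and 10.04 after bleomycin. Replicate 3 alone stayed close to the PBS arrays, and the groups did not overlap. Its difference was 1.09 ± 0.23, 2.13-fold (limma adjusted p = 0.00323), beside 0.70 ± 0.18 for Mcm2, 0.64 ± 0.16 for Mcm3 and 0.39 ± 0.11 for Mcm7. Mcm6 (0.46 ± 0.17, adjusted p = 0.0725) and Mcm4 (0.25 ± 0.15, adjusted p = 0.275) were not called. Mcm2 read 8.90, 8.72 and 8.53 in PBS and 9.77, 8.97, 8.95, 9.71 and 9.69 after bleomycin, so that replicates 2 and 3 were barely above the highest PBS array. Without replicates 1 and 4 the calls of Mcm2, Mcm3 and Mcm7 were lost, with differences of 0.49, 0.47 and 0.26.

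The loaders showed the same division. Cdc6, which helps to load the Mcm ring, was dim but tight: 6.04, 5.98 and 5.93 in PBS and 6.91, 6.40, 6.21, 6.86 and 6.63 after bleomycin. All bleomycin arrays were above all PBS arrays, and the difference of 0.62 ± 0.12 (limma adjusted p = 0.00229) was 0.43 ± 0.10 without the 2 arrays (adjusted p = 0.0115). Cdt1, its partner, read 9.98, 9.62 and 9.65 in PBS and 10.37, 10.20, 9.65, 10.57 and 10.57 after bleomycin. Here the groups overlapped, since replicate 3 was level with the lower PBS arrays, and the call (0.52 ± 0.16, adjusted p = 0.0363) was lost without the 2 arrays. The origin recognition genes were not called: Orc1 differed by 0.21 ± 0.12 (adjusted p = 0.270) and Orc6 by 0.03 ± 0.08 (adjusted p = 0.853). Orc6 was high in all groups, at 10.98 to 11.52 over the 16 arrays.

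Of the 8 polymerase and primase genes only the 2 of polymerase epsilon, the leading strand enzyme, were called. Pole, its catalytic subunit, read 8.23, 8.16 and 8.13 in PBS and 9.70, 8.81, 8.64, 9.70 and 9.82 after bleomycin. Replicate 5 was the highest array of all 16, and the groups did not overlap. The difference was 1.16 ± 0.23, 2.24-fold (limma adjusted p = 0.00213), and 0.92 ± 0.24 without the 2 arrays (adjusted p = 0.0219). The other 2 probes of Pole were dimmer, with means of 5.68 and 5.37 beside 8.67. They gave 0.42 (adjusted p = 0.0121) and 0.09 (adjusted p = 0.655), so the size for Pole depends on the probe. Pole2, the second subunit, read 7.50, 7.46 and 7.36 in PBS and 8.52, 7.72, 7.61, 8.21 and 8.37 after bleomycin, and rose by 0.65 ± 0.17 (adjusted p = 0.0159). That call was lost without the 2 arrays (0.46 ± 0.17, adjusted p = 0.107). The primase subunits Prim1 (0.40 ± 0.16, adjusted p = 0.0986) and Prim2 (0.45 ± 0.15, adjusted p = 0.0522) were not called, nor were Pola1 (0.26 ± 0.21), Pola2 (0.02 ± 0.09), Pold1 (0.17 ± 0.10) and Pold2 (0.04 ± 0.11).

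In the group of the clamp, its loader and the lagging strand, 3 of 8 rose. Rfc4, a clamp loader subunit, read 9.56, 9.86 and 9.85 in PBS and 10.44, 10.11, 10.11, 10.56 and 10.54 after bleomycin. The groups did not overlap, and the difference of 0.59 ± 0.12 (limma adjusted p = 0.00269) was still called without the 2 arrays (0.50 ± 0.13, adjusted p = 0.0273). Rfc5, of the same complex, read 10.27, 10.13 and 10.13 in PBS and 10.95, 10.53, 10.23, 10.79 and 10.88 after bleomycin. Its replicate 3 fell among the PBS arrays, and its call (0.50 ± 0.13, adjusted p = 0.0106) was lost without the 2 arrays. Lig1, the ligase that joins lagging strand fragments, rose by 0.43 ± 0.14 (adjusted p = 0.0373), a call also lost. Pcna, the clamp and the usual marker of S phase, was among the brightest of the genes and was not called. It read 12.82, 12.69 and 12.72 in PBS and 13.16, 12.70, 12.53, 13.11 and 13.12 after bleomycin. Replicates 1, 4 and 5 were above all PBS arrays and replicate 3 below them all, for a difference of 0.18 ± 0.14 (adjusted p = 0.431). Fen1, the flap nuclease (0.45 ± 0.17, adjusted p = 0.0797), Rfc3 (0.29 ± 0.11), Rpa2 (0.24 ± 0.09) and Rpa1 (0.06 ± 0.08) were not called either.

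Of the 5 genes of repair and chromatin copying, 3 rose. Uhrf1, which passes DNA methylation on to the new strand, had the greatest difference of the 39. It read 8.57, 8.62 and 8.56 in PBS and 10.51, 9.76, 9.00, 11.20 and 10.41 after bleomycin. The spread over the bleomycin arrays was wide, but the lowest was above each PBS array. The difference was 1.60 ± 0.33, 3.02-fold (limma adjusted p = 0.00298), and 1.14 ± 0.27 without replicates 1 and 4 (adjusted p = 0.0150). A dimmer probe of Uhrf1, with a mean of 5.43, gave 0.32 (adjusted p = 0.0619). Chaf1a, a subunit of the chaperone that places histones behind the fork, read 7.84, 7.77 and 7.52 in PBS and 8.38, 8.33, 7.93, 8.56 and 8.49 after bleomycin, and rose by 0.63 ± 0.14 (adjusted p = 0.00369). It too showed no overlap, and was called without the 2 arrays (0.54 ± 0.15, adjusted p = 0.0335). Fancd2, of crosslink repair, was dim and rose by 0.36 ± 0.10 (adjusted p = 0.0188), which was lost (adjusted p = 0.0890). Brca1 (0.21 ± 0.08, adjusted p = 0.0757) and Brca2 (0.33 ± 0.18, adjusted p = 0.234) were not called.

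Markers of other cells moved in the same comparison. The macrophage list was higher in 8 of 8 genes (median 1.93), the mitosis list in 9 of 11 (median 1.74, and 9 of 11 without replicates 1 and 4), and the fibroblast list in 4 of 7, with 1 lower. Mature T cell markers were higher in 2 of 6, while endothelial markers were lower in 4 of 6 (median -0.48), B cell markers in 2 of 5 and heart muscle markers in 2 of 6. The thymocyte list was called in 0 of 12 (median 0.50), its high values being on replicates 1 and 4. Summed as list means against PBS with LNA-control, macrophage markers were 1.82 to 2.23 after bleomycin with LNA-control and 0.50 to 0.55 after bleomycin with the inhibitor. In which cells the replication genes rose was not tested. The call rested on the controls too: leaving out replicate 3 of PBS with LNA-control, the lowest in the 39 genes, left 11 called, while weighting the arrays by their quality gave 34. The share of all genes called was not counted for these fits.

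With the inhibitor, few genes of the set changed after bleomycin. Of the 39 genes 2 were higher (5.13%) and 0 lower, where 13.4% of all genes were called, 7.31% higher and 6.04% lower. The median difference was 0.02, beside 0.01 over all genes, and the range was -0.39 to 0.38. In 4 genes the groups did not overlap in the upward direction and in 3 in the downward one, beside 10.5% and 10.1% of all genes. Tk1 read 9.00, 8.94 and 8.76 with PBS and the inhibitor, and 8.90, 9.27, 9.55, 9.18 and 9.46 with bleomycin and the inhibitor. These groups overlapped, and the difference of 0.37 ± 0.20 had an adjusted p of 0.210 by limma. Uhrf1 read 8.72, 8.82 and 8.30, then 8.73, 9.16, 9.25, 8.50 and 8.97 (0.31 ± 0.33, adjusted p = 0.574). Replicate 3 of bleomycin with the inhibitor was the highest of its group in both genes and in the mean over the 39 genes (0.26).

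The 2 genes that were called are both polymerase subunits outside the group that rose with LNA-control. Pola2, the regulatory subunit of polymerase alpha, read 6.53, 6.64 and 6.54 in PBS with the inhibitor and 6.87, 7.12, 6.99, 6.73 and 6.93 after bleomycin. The groups did not overlap, and the difference was 0.36 ± 0.09 (limma adjusted p = 0.0218). Pold2, the second subunit of polymerase delta, read 8.26, 8.12 and 8.18, then 8.22, 8.40, 8.65, 8.77 and 8.69 (0.36 ± 0.11, adjusted p = 0.0480). Its replicate 1 fell among the PBS arrays, and its call was lost without replicates 1 and 4 of bleomycin with LNA-control (adjusted p = 0.0651), which enter only through the shared estimate of spread. Leaving out 1 array at a time gave 0 to 4 calls. Orc6 differed by -0.26 ± 0.08 (adjusted p = 0.0512), Pcna by -0.30 ± 0.14 (adjusted p = 0.153) and Pola1 by -0.39 ± 0.21 (adjusted p = 0.236). In these 3 genes each bleomycin array was below each PBS array, yet none was called.

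**Figure D3:**
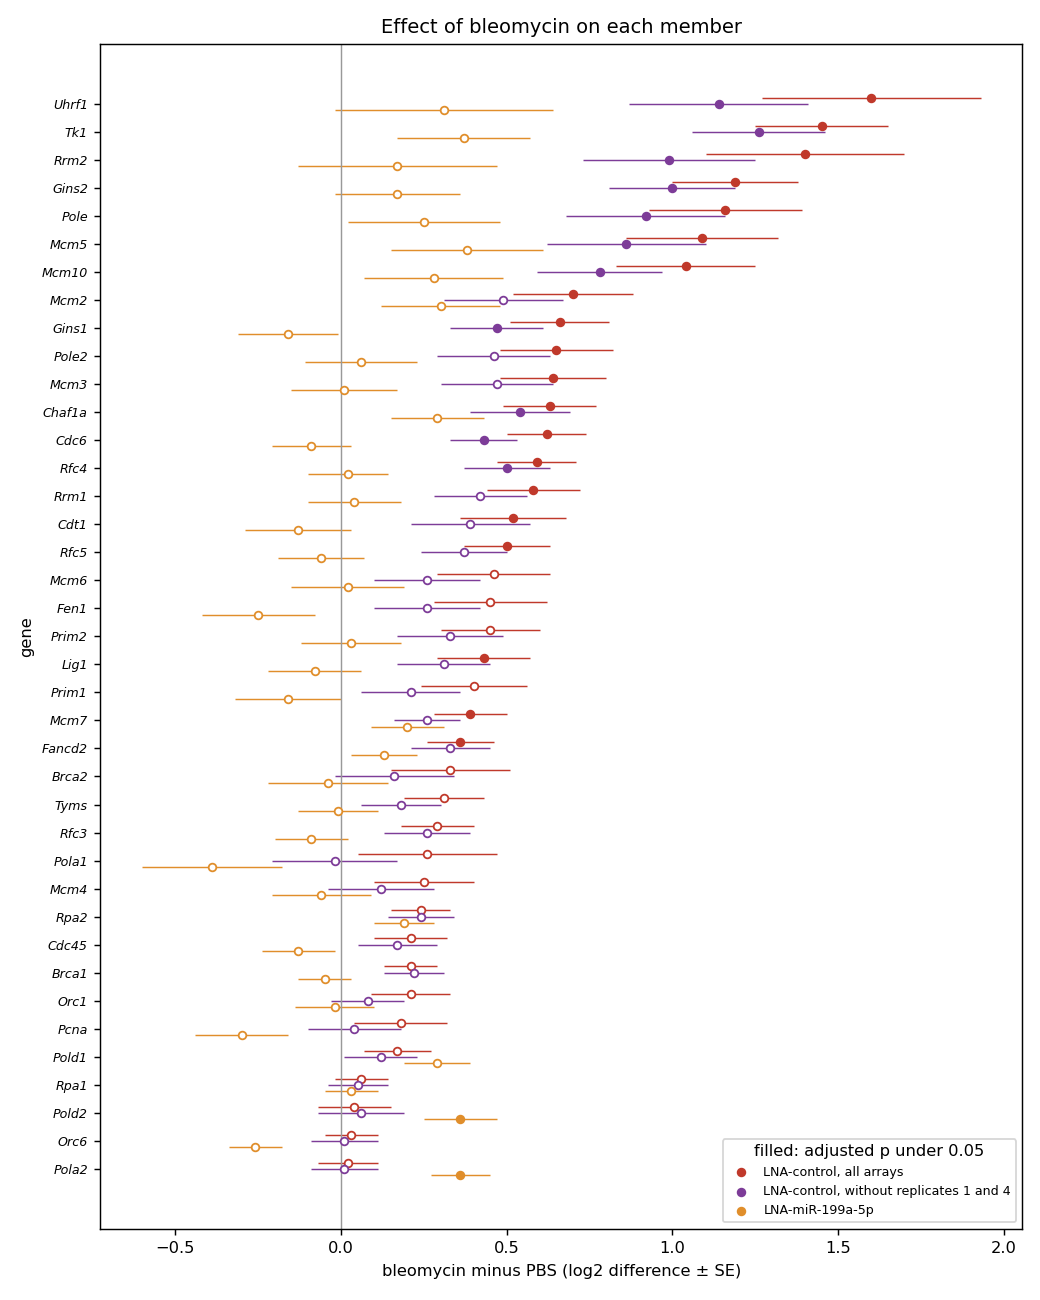
Bleomycin minus PBS for each gene (log2 difference ± SE, from limma) with LNA-control (red), with LNA-control without replicates 1 and 4 (purple) and with the inhibitor (orange); filled points have an adjusted p under 0.05. The red points run from 0.02 to 1.60 and 20 are filled, 11 of the purple points are filled, and the orange points run from -0.39 to 0.38 with 2 filled.

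Among bleomycin lungs, those given the inhibitor had lower levels of 24 of the 39 genes than those given LNA-control (61.5%), while 2 were higher, Pola2 and Pold2. Over all genes 24.9% were called, 11.4% lower and 13.4% higher. The median difference was -0.41, beside 0.01 over all genes, and 36 of 39 differences were below 0. This comparison uses the same bleomycin arrays with LNA-control as the one above, so they are not independent. In 5 genes (12.8%, beside 6.46% of all genes) each array with the inhibitor was below each array with LNA-control. Without replicates 1 and 4 of LNA-control, 8 were lower (20.5%, beside 5.57% of all genes) and 0 higher (beside 5.72%), with a median of -0.24. These 8 were Cdc6, Cdt1, Fen1, Gins1, Gins2, Rfc5, Tk1 and Uhrf1.

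All 4 genes of nucleotide supply were lower with the inhibitor. Tk1 fell by 1.03 on the log2 scale (SE 0.17, limma adjusted p = 0.000481), and its 5 arrays with the inhibitor, at 8.90 to 9.55, were all below the lowest LNA-control array at 9.71. It was also lower without the 2 arrays (-0.84 ± 0.18, adjusted p = 0.00921). Rrm2 read 9.79, 10.22, 10.29, 9.75 and 10.02 with the inhibitor, so replicates 2 and 3 overlapped the lowest LNA-control array at 10.19. Its difference of -1.16 ± 0.26 (adjusted p = 0.00467) was not called without the 2 arrays (-0.75 ± 0.23, adjusted p = 0.0542). Rrm1 (-0.48 ± 0.12) and Tyms (-0.32 ± 0.10, adjusted p = 0.0334) were also lower, and neither was without the 2 arrays.

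Helicase activation was lower in 3 of 4 genes. Gins2 read 6.92, 7.37, 7.59, 7.27 and 7.49 and Gins1 read 7.71, 8.04, 8.05, 7.81 and 8.02 with the inhibitor. In both genes no array reached the lowest LNA-control array (7.61 and 8.14). Gins2 differed by -0.86 ± 0.16 (limma adjusted p = 0.00136) and Gins1 by -0.63 ± 0.13 (adjusted p = 0.00295), and both stayed called without the 2 arrays. Mcm10 differed by -0.48 ± 0.18 and was not called (adjusted p = 0.0645), while Cdc45 was lower by a narrow margin (-0.26 ± 0.09, adjusted p = 0.0495).

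Licensing was lower in 6 of 10 genes: Cdc6, Cdt1, Mcm2, Mcm3, Mcm5 and Mcm7. Cdc6 read 6.07, 6.07, 5.97, 5.93 and 6.01 with the inhibitor, close to its PBS arrays and below all LNA-control arrays (-0.59 ± 0.11, limma adjusted p = 0.00110). Cdt1 read 9.68, 9.68, 9.71, 9.41 and 9.57, overlapping only LNA-control replicate 3 at 9.65 (-0.66 ± 0.14, adjusted p = 0.00324). Mcm5 read 8.91, 9.03, 9.47, 8.69 and 9.24 and differed by -0.75 ± 0.20 (adjusted p = 0.0120), a call lost without the 2 arrays (-0.53 ± 0.21, adjusted p = 0.132).

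In the remaining roles, 4 of 8 polymerase and primase genes, 5 of 8 clamp, loader and lagging strand genes and 2 of 5 repair and chromatin genes were lower. Uhrf1 fell furthest, by 1.26 on the log2 scale (SE 0.29, limma adjusted p = 0.00517), and by 0.80 without the 2 arrays (adjusted p = 0.0493). Fen1 read 10.40, 10.48, 10.56, 10.39 and 10.12 with the inhibitor, which overlapped LNA-control replicate 3 alone (10.49), and differed by -0.69 ± 0.15 (adjusted p = 0.00296). Pole (-0.80 ± 0.20), Pola1 (-0.55 ± 0.18), Prim1 (-0.41 ± 0.14) and Pole2 (-0.43 ± 0.15) were the polymerase and primase genes. None of these was called without the 2 arrays. The other probes of Pole, both dimmer, gave -0.25 (limma adjusted p = 0.0633) and 0.06 (adjusted p = 0.713). Pcna read 12.53, 12.66, 12.72, 12.42 and 12.30 with the inhibitor, all below the 3 arrays of PBS with the inhibitor (12.78 to 12.89). Against LNA-control it differed by -0.40 ± 0.12 (adjusted p = 0.0213), a call lost without the 2 arrays (adjusted p = 0.202). Pold2 (0.37 ± 0.10, adjusted p = 0.0117) and Pola2 (0.26 ± 0.08, adjusted p = 0.0259) went the other way and were not called without the 2 arrays. In the same comparison macrophage markers were lower in 8 of 8 genes (median -1.44) and mitosis genes in 9 of 11 (median -1.21), and 8 and 6 without the 2 arrays. Endothelial markers were higher in 6 of 6 (median 0.58) and heart muscle markers in 6 of 6 (median 0.78), and 6 and 3 without the 2 arrays. B cell markers were higher in 3 of 5, fat markers in 3 of 6 and alveolar epithelial markers in 3 of 7, while of 7 fibroblast markers 3 were higher and 3 lower. List means of squamous epithelium markers, against PBS with LNA-control, were 1.77 to 2.65 with the inhibitor and 0.62 to 1.62 with LNA-control. In PBS with the inhibitor they spanned -3.26 to 1.86. The part of these cells in the result was not tested. The count depended on single arrays: leaving out replicate 1, 4 or 5 of the LNA-control arrays gave 17 in each case, beside 26 with all arrays. It was 29 and 31 without LNA-control replicates 2 and 3, and 18 and 19 without replicates 4 and 5 of the inhibitor. Leaving out any other array gave 21 to 24. RNA integrity numbers averaged 8.20 with LNA-control and 9.00 with the inhibitor, and with them as a covariate the count was 13. Shares over all genes were not counted for these fits.

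**Figure D4:**
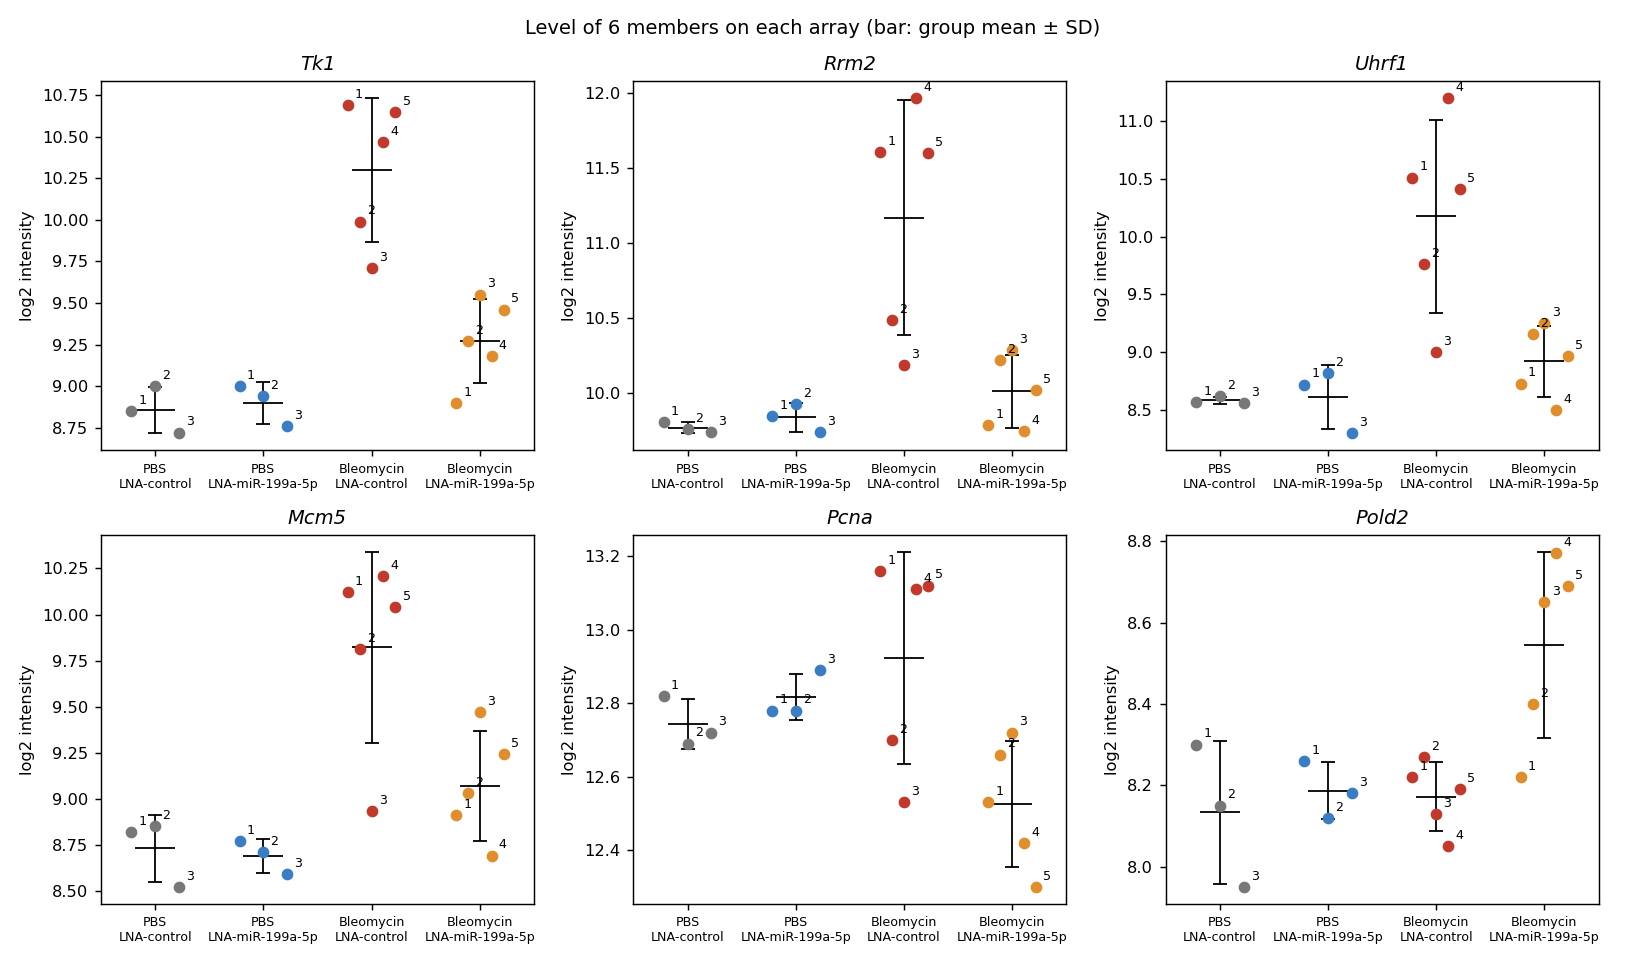
Log2 intensity of Tk1, Rrm2, Uhrf1, Mcm5, Pcna and Pold2 on each array, labelled by replicate, with group mean ± SD. Tk1 on bleomycin arrays with LNA-control (9.71 to 10.69) lies above all other arrays, Pcna there spans 12.53 to 13.16, across the PBS arrays, and Pold2 reaches its highest level, 8.77, with bleomycin and the inhibitor.

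Without bleomycin the inhibitor changed none of the 39 genes by limma at an adjusted p under 0.05, and 0 had an unadjusted p under 0.05. Over all genes 10 were called, 0.0479%. The median difference was 0.06, beside 0.01 over all genes, and the range was -0.09 to 0.28. The groups did not overlap in 4 genes upward and 1 downward, beside 10.2% and 7.89% of all genes. Mcm10 had the widest difference, reading 7.27, 7.38 and 7.43 with the inhibitor against 7.16, 7.06 and 7.03 (0.28 ± 0.24, adjusted p = 0.868). Tk1 differed by 0.04 ± 0.22 and Uhrf1 by 0.03 ± 0.37. With 3 arrays a group these errors are wide, and a missed threshold does not show that the levels were alike.

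The bleomycin effect was tested for a difference between the 2 oligonucleotides as an interaction, the effect with the inhibitor minus that with LNA-control. It was below 0 at an adjusted p under 0.05 in 4 of 39 genes (10.3%), above 0 in none, and over all genes 7.01% were called, 3.94% below 0 and 3.07% above. The 4 were Tk1 (-1.07 ± 0.28, limma adjusted p = 0.0298), Gins2 (-1.01 ± 0.26, adjusted p = 0.0307), Gins1 (-0.82 ± 0.22, adjusted p = 0.0321) and Cdc6 (-0.71 ± 0.18, adjusted p = 0.0265). At an unadjusted p under 0.05 there were 24 below and 1 above 0, and the share of all genes at that threshold is not reported here. The median was -0.47, beside 0.00 over all genes. Uhrf1 (-1.29 ± 0.47, adjusted p = 0.113) and Rrm2 (-1.23 ± 0.43, adjusted p = 0.0946) had the greatest values and wide errors. Without replicates 1 and 4, 11 were below and 1 above 0 at an unadjusted p under 0.05, again without the share of all genes. The interaction was then called in 0 of 39 at an adjusted p under 0.05, beside 2.52% of all genes, with a median of -0.35. For Tk1 it was then -0.89 ± 0.27 (adjusted p = 0.105) and for Cdc6 -0.52 ± 0.13 (adjusted p = 0.0541). Single arrays moved this count: in bleomycin with LNA-control it was 21 without replicate 3, 7 without replicate 2 and 1 without replicate 1, 4 or 5, and 0 to 2 without any single PBS array. It was 26 with array weights and 0 with the RNA integrity number as a covariate. For these fits the share of all genes called was not counted.

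The rest of the replication and repair pathway was described from lists of genes outside the 39. The shares over all genes, for comparison, were 9.60% higher and 7.90% lower after bleomycin with LNA-control, and 13.4% higher and 11.4% lower with the inhibitor in bleomycin lungs. Without replicates 1 and 4, 6.26% were higher after bleomycin with LNA-control, and the share lower is not reported here. With the inhibitor in bleomycin lungs, 5.72% were then higher and 5.57% lower. With LNA-control, bleomycin raised 12 of 39 other fork genes and lowered 1 (median 0.16). Asf1b, a histone chaperone that works with Chaf1a, rose by 1.31 ± 0.21 (limma adjusted p = 0.000411), from 8.06 to 8.23 on the PBS arrays to 8.63 to 9.86. Chaf1b, the partner subunit of Chaf1a, rose by 0.78 ± 0.16 and was lower with the inhibitor in bleomycin lungs (-0.92 ± 0.14, adjusted p = 0.000287). Recql4, a helicase of replication initiation, rose by 0.52 ± 0.10. In bleomycin lungs the inhibitor lowered 9 of the 39 and raised 0, with Rnaseh2b, of ribonucleotide removal, at -0.38 ± 0.07. Without replicates 1 and 4 the bleomycin count was 4 higher and 0 lower, and the inhibitor count 0 higher and 4 lower. Asf1b (1.08 ± 0.21), Chaf1b (0.68 ± 0.18) and Recql4 (0.48 ± 0.11) were among the 4 that stayed higher.

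Of 27 genes of homologous recombination and the Fanconi pathway, 11 rose and 1 fell after bleomycin with LNA-control (median 0.21), and 6 and 1 without the 2 arrays. Fanci, the partner of Fancd2, rose by 1.07 ± 0.21 (limma adjusted p = 0.00178) and Fanca by 0.38 ± 0.07 (adjusted p = 0.000841). Fancb fell (-0.60 ± 0.09, adjusted p = 0.000181). These 3 calls were kept without the 2 arrays, with Fanci at 0.86 ± 0.22. With the inhibitor in bleomycin lungs 11 were lower and 3 higher, and without the 2 arrays 2 and 0. Rad54l, a recombination motor, was lower in both cases (-0.74 ± 0.14, adjusted p = 0.00111, and -0.52 ± 0.12). Of 10 end joining genes 1 rose, near the share of all genes. This was Xrcc6 of the Ku complex (0.48 ± 0.12, adjusted p = 0.0100, and 0.28 ± 0.07 without the 2 arrays), while its partner Xrcc5 was at 0.15 ± 0.06 (adjusted p = 0.116). Of 26 excision and mismatch repair genes 2 rose and 4 fell (median 0.02), and 1 and 3 without the 2 arrays. Xpa, of nucleotide excision repair, was among those that fell (-0.35 ± 0.08, adjusted p = 0.00693). Apex1, the abasic site nuclease, rose by 0.48 ± 0.09 with LNA-control (adjusted p = 0.00186) and by 0.49 ± 0.09 with the inhibitor (adjusted p = 0.00762). Mutyh, a glycosylase, fell (-0.39 ± 0.08) with LNA-control, and in bleomycin lungs it was 0.37 ± 0.07 higher with the inhibitor than with LNA-control (adjusted p = 0.00111). In that comparison 7 of the 26 were higher and 2 lower, and 3 and 0 without the 2 arrays. Nthl1, also a glycosylase, was 0.42 ± 0.09 higher there. Whether these lists differ from each other or from the 39 genes was not tested.

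Of 11 checkpoint genes 2 were higher after bleomycin with LNA-control and 0 lower, with a median of -0.11. Chek2 rose by 0.56 ± 0.13 (limma adjusted p = 0.00759) and H2ax, the histone marked at breaks, by 0.75 ± 0.20 (adjusted p = 0.0151). Neither was called without replicates 1 and 4, where the list had 0 calls. Chek1 was at -0.04 ± 0.09 (adjusted p = 0.820). Among 21 E2F and G1/S regulators 9 rose and 2 fell (median 0.27), and 6 and 1 without the 2 arrays. Ccne1, the cyclin of S phase entry, rose by 1.46 ± 0.20 (adjusted p = 9.69e-05), from 7.53 to 7.78 on the PBS arrays to 8.54 to 9.57. E2f8, an E2F repressor and itself a target of these factors, rose by 1.15 ± 0.18, and E2f1 by 0.53 ± 0.11 (adjusted p = 0.00262). Without the 2 arrays these 3 were still called, at 1.26, 0.89 and 0.48. Ccnd1, a G1 cyclin, was lower with the inhibitor in bleomycin lungs (-0.62 ± 0.10, adjusted p = 0.000546). The list also holds Cdkn1a, the p53 target p21 that halts the cycle. It read 10.37, 10.37 and 10.35 in PBS and 11.52, 12.48, 12.30, 12.68 and 12.32 after bleomycin. Among the bleomycin arrays it was lowest on replicate 1 and highest on replicate 4, and its difference of 1.89 ± 0.22 (adjusted p = 1.92e-05) was 2.00 ± 0.17 without the 2 arrays. With the inhibitor it read 10.90, 10.86 and 10.97 in PBS, above the PBS arrays with LNA-control. After bleomycin with the inhibitor it read 11.17, 11.36, 11.20, 12.03 and 11.67. Each of these was above each PBS array with the inhibitor, but the difference of 0.58 ± 0.22 was not called (limma adjusted p = 0.0836). The proliferation marker Mki67 rose by 1.75 ± 0.30 (adjusted p = 0.000758) and Top2a, the topoisomerase of dividing cells, by 1.61 ± 0.32 (adjusted p = 0.00213) with LNA-control, and both were also called without the 2 arrays. Both followed the order of the replication genes over the arrays, with replicates 1, 4 and 5 of Mki67 at 12.36, 12.48 and 12.20 and replicates 2 and 3 at 11.43 and 10.66.

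**Figure D5:**
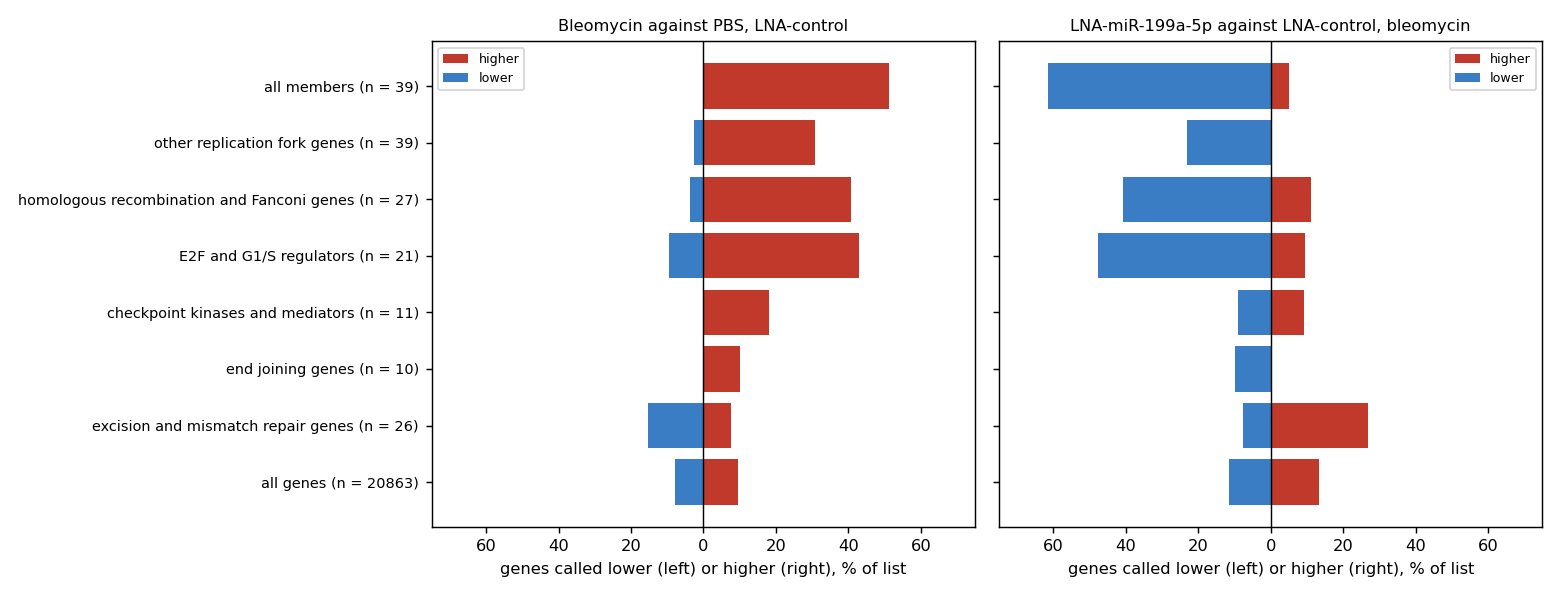
Share of each list called higher (red, to the right) or lower (blue, to the left) by limma, in percent, for bleomycin against PBS with LNA-control (left panel) and for the inhibitor against LNA-control in bleomycin lungs (right panel); the bottom bar is all 20863 genes. The 39 genes stand at 51.3% higher in the left panel and 61.5% lower in the right one, beside 9.60% and 11.4% of all genes.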

How the data were processed

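Whole-lung RNA (0.2 ug per sample) was labelled with Cy3 and hybridised to 1-colour Agilent arrays, per the labels' protocols. The deposited values are log2 intensities, prepared by the authors with limma (per the submitters' processing notes, with no version). Sorted values of the arrays lay within 0.0974 of each other, as after quantile normalization. Background correction and filters are not given in the sources used here. The number of arrays limits the precision.

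Of 62976 spots, 31465 carried 1 gene symbol in the platform annotation. Accessions of 29036 of these matched RefSeq, which changed 2933 symbols. The probe of highest mean was kept for each of 20863 genes. No gene was filtered out and no value was rescaled. One group-means model of 16 arrays was fitted with limma 3.58.1 in R 4.3.3 (lmFit, eBayes) and gave 5 contrasts. All p-values are two-sided and adjusted by Benjamini-Hochberg over all genes, with calls under 0.05. The code was tested on simulated data.

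The 39 genes and all lists were chosen with earlier results of these data known. Values of every array are given for the 2 genes of each role with the smallest p for bleomycin with LNA-control, for Pcna, for up to 4 genes whose call was lost without the 2 arrays with Rag1 above 8, and for up to 4 of those with the widest differences. Array values of Fen1, Pola2 and Pold2, which this rule does not cover, are given where the comparisons with the inhibitor are described. From each pathway list at most 3 genes with the smallest p in that contrast are named, and at most 2 by the inhibitor comparison after bleomycin, with Cdkn1a, Mki67, Top2a, Chek1 and E2f1 always. Of the genes that the rule always names, 1 is not reported here. Numbered PBS arrays deviated together (correlations of deviations 0.411, 0.108 and 0.497 for numbers 1 to 3), so these numbers were taken to pair the PBS groups, from the data and not the labels. With the number as a block the inhibitor still changed 0 of 39 genes in PBS lungs. There were 26 alternatives for each comparison of 2 groups and 25 for the interaction, where the fit of only the groups compared is the same fit, and 1 fewer for the 16 genes that the filter on dim genes removed: leaving out each array or the 2 thymus-rich ones, the replicate block, only the groups compared, cyclic loess, a filter on dim genes, array weights, RNA integrity or thymocyte markers as a covariate, the mean of all probes and an intensity trend.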

Additional observations from a re-analysis of the deposited data

Results flagged for a closer look

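Within the 2 groups of 5 arrays, 4 genes had an array whose distance from the nearest other one was a large share of the group's range (Dixon's test at the 95% level). With 78 such groups looked at, chance gives about 1 in 20. With bleomycin and the inhibitor, Orc6 read 10.98 on replicate 4, where the nearest array read 11.22, and Cdc45 read 5.54 on replicate 1, where the nearest read 5.80. With bleomycin and LNA-control, Pold1 read 10.19 and Lig1 read 10.41 on replicate 3, beside 10.48 and 10.99 on the nearest arrays. The other 4 arrays of Pold1 in that group lay between 10.48 and 10.55.

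The bleomycin effect differed between the oligonucleotides by the limma interaction test in 4 genes, each with a smaller effect with the inhibitor. These were Cdc6 (-0.71), Gins1 (-0.82), Gins2 (-1.01) and Tk1 (-1.07). None was called without replicates 1 and 4 of bleomycin with LNA-control.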

How the results depend on the processing

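The medians of the 39 genes moved by less than the spread between arrays under all alternatives run. This spread is the SD of the arrays' means over the 39 genes, pooled over the groups compared. Where bleomycin with LNA-control enters, it includes the gap between the high and low arrays of that group, so it is a wide limit. Only the median for bleomycin with the inhibitor, 0.02, changed sign. Leaving out 1 array at a time gave medians of 0.37 to 0.56 for bleomycin with LNA-control, -0.02 to 0.05 with the inhibitor, -0.52 to -0.34 for the inhibitor in bleomycin lungs, 0.01 to 0.10 in PBS lungs and -0.57 to -0.41 for the interaction. Counts of called genes moved more: 11 to 26, 0 to 4, 17 to 31, 0 to 0 and 0 to 21 in that order. The count for bleomycin with LNA-control, 20, was 11 without the thymus-rich arrays and 34 with array weights. With the inhibitor it was 2, then 1 without the thymus-rich arrays and 0 with only the groups compared or with RNA integrity as a covariate. For the inhibitor in bleomycin lungs it was 26, then 8 without the thymus-rich arrays, 17 with only the groups compared, 13 with RNA integrity and 17 with thymocyte markers as a covariate. For the interaction it was 4, then 0 without the thymus-rich arrays, 2 with only genes above the median level, 26 with array weights and 0 with RNA integrity. With a replicate block these counts were 14, 0, 20, 0 and 1, where the PBS groups were the only ones in which every same-numbered pair had a correlation of deviations over 0.1 (0.108 to 0.497). Shares over all genes were counted only with all arrays and without the thymus-rich arrays, so the other counts have none beside them. The causes were not tested. Of single-gene results, 7988 kept their direction and side of the threshold, 356 lost a call, 169 gained one and 0 reversed. The 11 genes called without the thymus-rich arrays for bleomycin with LNA-control were called under each alternative run on them. The filter on dim genes kept 23 of the 39. Array signal over background was not stated, so the 4 genes below the median of all spots have the least certain levels.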
